A study of Mus musculus with 26 samples.

Results

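Transcripts of 10 genes of the hepatic stellate cell and its extracellular matrix were followed in liver RNA from 26 Eu-MYC mice. The genes were picked by name and grouped by label: Lrat, Des and Dcn for the quiescent cell and its surroundings, Col1a1, Col1a2, Col3a1, Acta2, Timp1 and Lox for the activated cell, and Tgfb1 for the signal that activates it. The grouping itself was not tested, and a change in Des or Dcn is not a measure of quiescence. All 10 were found among the 36883 gene names of the deposited count table and were taken by name, with no threshold on a measured value, although earlier results of these data were known. In the Eu-MYC line the immunoglobulin heavy chain enhancer drives MYC in B-lineage cells, and all 26 animals, controls included, carried this transgene. Each library came from the liver of 1 numbered animal. Under 12 h of light and 12 h of dark (12:12) there were 8 females and 6 males. Chronic jet lag lighting (CJL), which lasted 8 weeks per the series title, was given to 8 females and 4 males. The sources used here give neither age nor health, and neither the shift schedule nor the hour of tissue collection.

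Stellate cells lie between hepatocytes and the sinusoidal endothelium and store vitamin A as retinyl esters, which the enzyme encoded by Lrat makes. In an injured liver they lose this store, take on the features of myofibroblasts and lay down fibrillar collagen, the core of fibrosis. TGF-beta 1 is the best known inducer of that switch. Portal fibroblasts and vascular smooth muscle cells express several of the same genes, so that none of the collagens, Acta2 or Des belongs to stellate cells alone.

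RefSeq promoters (250 bases before to 50 after the start site, GRCm38.p6) were at hand for 7 of the 10 genes. Those of Lrat, Acta2, Col1a2, Col3a1 and Tgfb1 are printed because the comparisons below turn on these genes. They lie at chr3:82903925-82904224 on the minus strand, chr19:34255324-34255623 on the minus strand, chr6:4505368-4505667 on the plus strand, chr1:45311288-45311587 on the plus strand and chr7:25686752-25687051 on the plus strand, in that order. Each is written 5′ to 3′ on the strand of the gene. Capitals mark matches, on either strand, to the TATA box (TATAAA), the CCAAT box, the GC box (GGGCGG) or the SMAD binding element (CAGACA).
Lrat: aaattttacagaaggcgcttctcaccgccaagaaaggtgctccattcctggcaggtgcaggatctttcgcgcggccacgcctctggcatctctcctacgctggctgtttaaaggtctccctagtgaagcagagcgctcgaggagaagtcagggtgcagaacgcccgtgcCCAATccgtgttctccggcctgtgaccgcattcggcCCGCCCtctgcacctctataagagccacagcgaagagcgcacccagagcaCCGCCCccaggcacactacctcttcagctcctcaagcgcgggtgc
Acta2: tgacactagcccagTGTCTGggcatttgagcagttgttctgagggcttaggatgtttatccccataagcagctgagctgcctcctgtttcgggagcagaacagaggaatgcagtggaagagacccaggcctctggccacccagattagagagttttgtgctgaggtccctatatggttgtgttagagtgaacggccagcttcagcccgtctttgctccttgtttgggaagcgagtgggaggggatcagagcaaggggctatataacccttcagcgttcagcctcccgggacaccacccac
Col1a2: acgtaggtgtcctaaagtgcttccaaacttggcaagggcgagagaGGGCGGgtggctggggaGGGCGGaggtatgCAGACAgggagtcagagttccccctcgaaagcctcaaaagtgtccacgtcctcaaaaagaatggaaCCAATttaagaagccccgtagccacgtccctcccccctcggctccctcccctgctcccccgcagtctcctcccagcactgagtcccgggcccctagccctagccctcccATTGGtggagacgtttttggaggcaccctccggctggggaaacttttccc
Col3a1: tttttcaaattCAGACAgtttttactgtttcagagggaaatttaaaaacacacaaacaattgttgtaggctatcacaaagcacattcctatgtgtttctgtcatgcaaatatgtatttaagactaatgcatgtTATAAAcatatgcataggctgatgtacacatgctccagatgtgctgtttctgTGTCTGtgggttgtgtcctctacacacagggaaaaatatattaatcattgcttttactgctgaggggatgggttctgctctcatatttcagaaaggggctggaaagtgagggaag
Tgfb1: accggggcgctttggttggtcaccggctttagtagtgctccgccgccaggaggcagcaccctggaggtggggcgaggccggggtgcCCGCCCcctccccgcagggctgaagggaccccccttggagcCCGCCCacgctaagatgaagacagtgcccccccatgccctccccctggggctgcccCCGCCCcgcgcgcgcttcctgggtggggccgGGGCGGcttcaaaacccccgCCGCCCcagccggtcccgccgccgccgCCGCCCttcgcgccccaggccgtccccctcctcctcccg
The GC box occurred in 5 of the 7 promoters and in 35.7% of all 32851 promoters of the table. CAGACA occurred in 4 of 7 and in 21% of all, CCAAT in 3 of 7 and in 37.4% of all, and TATAAA in 1 of 7 and in 13.6% of all. The E-box CACGTG, the AP-1 element TGACTCA and the CArG box by its strict consensus had no match in these 7 windows, and 7.15%, 5.2% and 1.63% of all promoters held them. Of the 2 collagen promoters shown, that of Col1a2 held CCAAT, GC box and CAGACA matches, whereas that of Col3a1 held the TATAAA match and 2 CAGACA matches. The Tgfb1 promoter held 6 GC boxes and none of the other marked elements. These matches describe letters only. Of the genes without a printed promoter, Col1a1 lies at chr11:94936224-94953042 on the plus strand and Dcn at chr10:97479609-97518143 on the plus strand (GENCODE M21).

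Library totals ran from 45364557 to 50242019 counts. Values are given as CPM, the count over the library total, scaled to a common library size, and 3 counts stand for at most 0.0661 CPM. Albumin took 10% to 22.1% of the counts. The 20 further stellate markers (Reln, Hgf, Rgs5, Colec11 and others) were all detected with a median above 0.1 CPM, and Reln ran from 35.4 to 247 CPM. In bulk RNA, fewer cells of a type and less RNA per cell cannot be told apart. In 8 libraries the B-cell receptor chain transcript Cd79a reached 14.5 to 144 CPM, and in the other 18 it lay between 1.28 and 2.95 CPM. The 8 libraries, called Cd79a-high below for a limit of 8 CPM, were 2 and 3 females under 12:12 and jet lag lighting, and 2 and 1 males. P-values below measure the spread between animals.

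Per length, the small collagen-binding proteoglycan decorin (Dcn) was by far the most abundant of the 10, with a median of 23.5 CPM per kb of exon over the 26 libraries. Type III collagen (Col3a1) followed at 3.3 and Tgfb1 at 1.64 CPM per kb. Both type I collagen chains (Col1a2 1.14, Col1a1 0.859), smooth muscle actin (Acta2, 0.941), Lrat (0.895) and the intermediate filament desmin (Des, 0.803) lay close together, with ranges over libraries that overlapped. The metalloproteinase inhibitor Timp1 (0.213) and the collagen crosslinking enzyme lysyl oxidase (Lox, 0.0133) came last. Timp1 was 0 in 2 libraries and Lox in 3, and no library held more than 70 Timp1 or 45 Lox counts, so that counting error weighs on both.

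**Figure D1:**
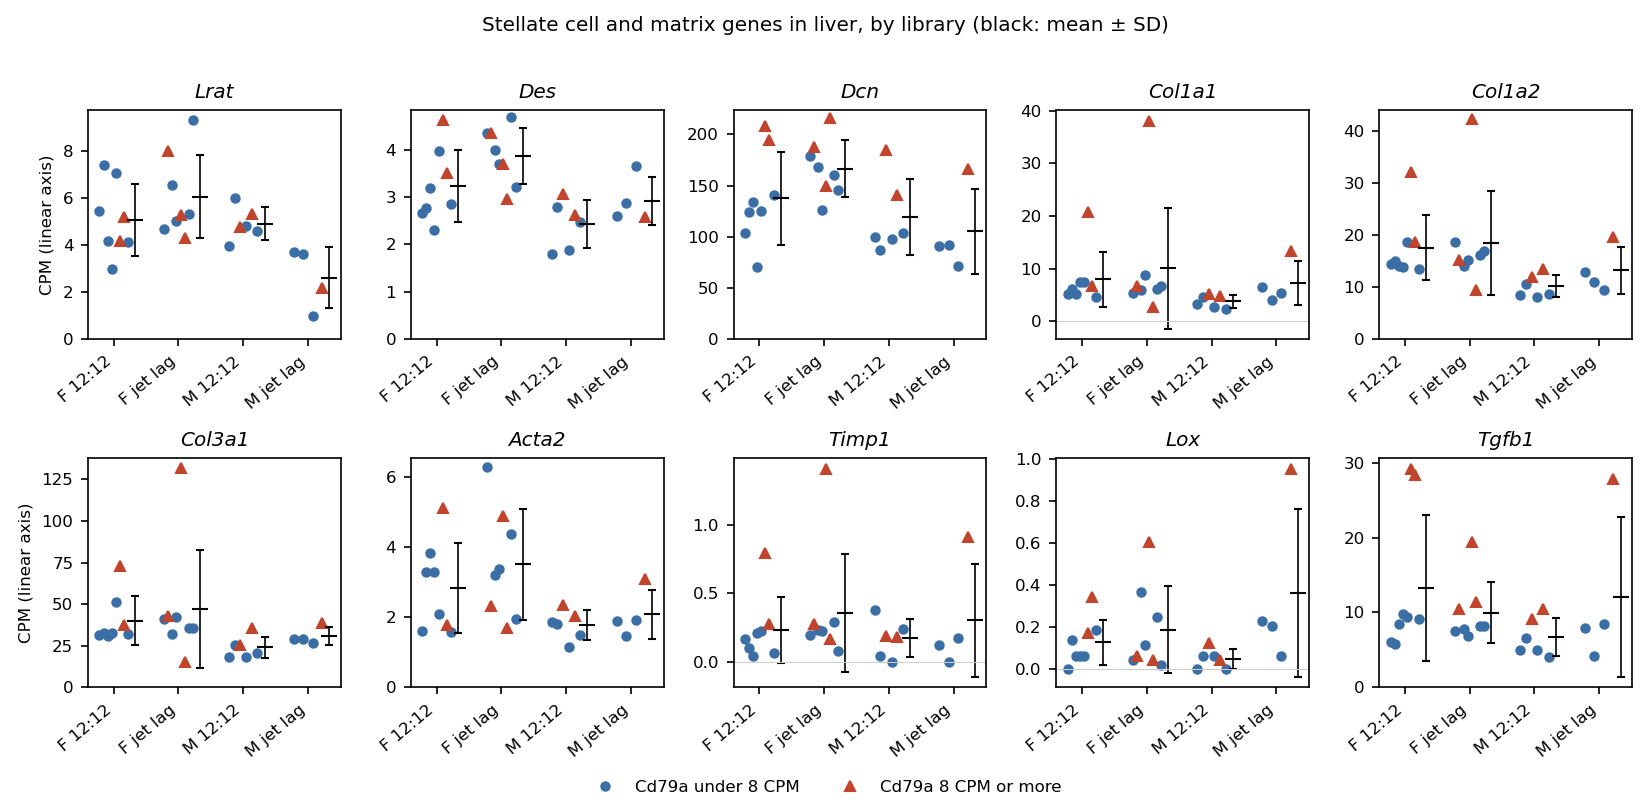
CPM (linear axis) of the 10 genes in each of the 26 libraries by sex and lighting, with triangles for the 8 libraries at 8 CPM of Cd79a or more, circles for the other 18, and the group mean ± SD in black. The highest collagen, Timp1 and Tgfb1 values are triangles, and the lowest Lrat value, 0.978 CPM, is a circle.

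The genes differed in how much animals varied. Within the 18 libraries under the Cd79a limit, the SD of log2 CPM was 0.31 for Col1a2, 0.33 for Col3a1, 0.34 for Dcn, 0.35 for Des and 0.35 for Tgfb1, near the median of 0.36 over the 16892 genes tested. It was 0.46 for Col1a1, 0.60 for Acta2, 0.63 for Lrat and at least 1.00 for Timp1 and Lox. Over all 26 libraries the SD of Col1a1 was 0.80 and that of Tgfb1 0.69, against a median of 0.44 over all genes.

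The first comparison described the Cd79a-high livers against the rest. The split rests on a measured transcript and not on the labels, so it carries no test. Tgfb1 stood out among the 10: its median was 15.4 CPM in the 8 libraries and 7.61 CPM in the 18, a log2 ratio of medians of 1.01. In ascending order of Cd79a the 8 values were 10.5 (jet lag female 2), 10.5 (12:12 male 5), 11.4 (jet lag female 6), 9.11 (12:12 male 3), 19.5 (jet lag female 5), 28.4 (12:12 female 7), 29.2 (12:12 female 6) and 27.9 CPM (jet lag male 8). The 18 other libraries ran from 4.03 to 9.73 CPM, so that 7 of the 8 lay above all of them, and the 4 libraries richest in Cd79a were the 4 highest for Tgfb1. Within each sex the Tgfb1 values of Cd79a-high and other libraries did not overlap. With TMM-scaled CPM, 5 of the 8 lay above all 18, and the groups stayed apart in females but not in males, where jet lag male 7, at 10.4 TMM-scaled CPM, lay above 2 of the 3 Cd79a-high males. Without 12:12 female 6, 12:12 female 7, jet lag female 5 or jet lag male 8 the log2 ratio of medians was 0.58.

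Of the 10 genes, Tgfb1 alone passed 2-fold by medians (1 of 10), where 10.1% of all genes tested were higher by more than 2-fold and 1.57% lower. No member had all 8 libraries above the 18 others, which 3.94% of all genes had. The median log2 ratio was 0.30 over the members and 0.11 over all genes. Tgfb1 lay so near this line that it fell short of 2-fold in 13 of the 26 settings that left out 1 library each. With TMM-scaled CPM no member passed 2-fold.

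Dcn was the second of the 10 by this ratio, with a median of 186 against 114 CPM and a log2 ratio of 0.71. Its 8 values were 188, 141, 216, 185, 150, 195, 209 and 166 CPM in the order above, against 70.6 to 179 CPM in the other 18 libraries. All 8 lay above the median of the rest and 5 above its highest library. In males, where 3 libraries stood against 7, Dcn, Acta2 and Tgfb1 did not overlap; 15.2% of all genes behaved so there, and 7.16% did so in females. With TMM-scaled CPM only Dcn of these 3 genes kept the males apart.

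Collagen transcripts were highest in 3 of the Cd79a-high livers and spread widely over the others. Col1a1 reached 38.1 CPM in jet lag female 5, 20.7 in 12:12 female 6 and 13.4 in jet lag male 8, above the range of 2.27 to 8.68 CPM of the other 18 libraries. In the remaining 5 Cd79a-high libraries it lay between 2.68 and 6.73 CPM, inside that range. Col1a2 was likewise highest in jet lag female 5 (42.3 CPM), 12:12 female 6 (32.2) and jet lag male 8 (19.6), against at most 18.8 CPM in the 18 libraries (with TMM-scaled CPM jet lag male 8 fell inside their range). Col3a1 reached 132 and 73 CPM in the first pair and 38.5 CPM in jet lag male 8, where the 18 libraries ran from 18.4 to 51 CPM. The upper part of these ranges is female. Among males, jet lag male 8 and 12:12 male 5 lay above all 7 males under the limit for both genes. Col1a2 was 13.5 CPM in 12:12 male 5 against at most 12.9 CPM in those 7. Col3a1 was 35.5 CPM there against at most 29 CPM. Jet lag female 6, with 31.4 CPM of Cd79a, had the lowest Col3a1 of all 26 libraries at 15.2 CPM, while its Dcn of 216 CPM was the highest. So livers that passed the same Cd79a limit stood at both ends of the Col3a1 range.

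The balance of the type I chains, which assemble with 2 alpha 1 chains for each alpha 2 chain, moved in the same livers. The ratio of Col1a1 to Col1a2 counts does not depend on the library total. It was 0.9 in jet lag female 5, 0.684 in jet lag male 8 and 0.643 in 12:12 female 6, and ran from 0.263 to 0.567 with a median of 0.387 in the 18 libraries under the limit. The other 5 Cd79a-high libraries ran from 0.281 to 0.436, inside that range. The sum of the 3 collagens over Dcn was 1.41 in jet lag female 5 and 0.127 in jet lag female 6, the highest and lowest of all, against 0.299 to 0.763 in the 18 libraries.

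**Figure D2:**
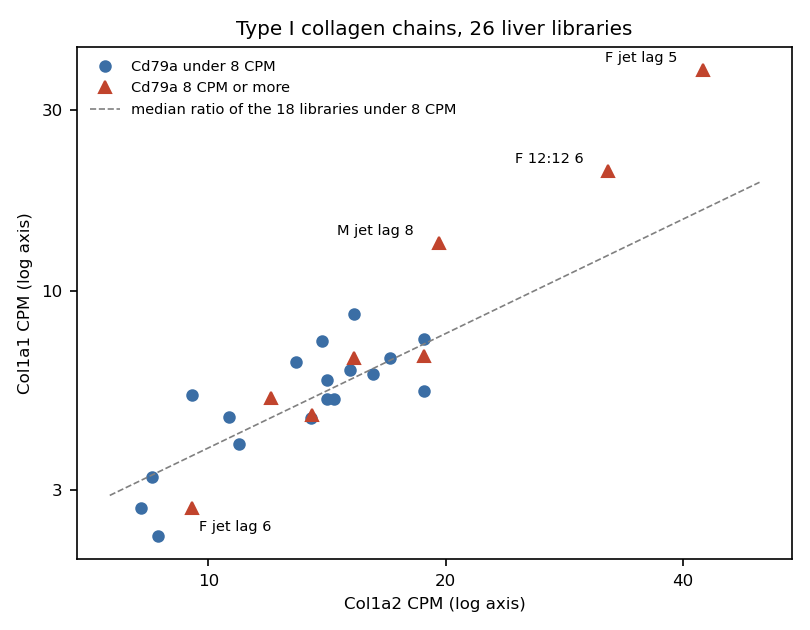
Col1a1 against Col1a2 CPM (both log axes) in 26 livers, triangles for Cd79a of 8 CPM or more and a dashed line at the median ratio of 0.387 of the other 18 libraries. Jet lag female 5, 12:12 female 6 and jet lag male 8 lie above the line at ratios of 0.9, 0.643 and 0.684.

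Timp1 followed the collagens in those livers: 1.41 CPM (70 counts) in jet lag female 5, 0.911 (43 counts) in jet lag male 8 and 0.791 (37 counts) in 12:12 female 6, against at most 0.376 CPM in the 18 libraries. Lox was highest in jet lag male 8 at 0.953 CPM (45 counts) and in jet lag female 5 at 0.603 CPM (30 counts), with at most 0.369 CPM in the 18 libraries. Acta2, the marker of the contractile myofibroblast, was inside the range of the 18 libraries in these livers, although not inside that of its sex in jet lag male 8. It was 4.9, 5.13 and 3.09 CPM in jet lag female 5, 12:12 female 6 and jet lag male 8, and up to 6.28 CPM in the 18 libraries, of which the 7 males reached 1.91 CPM. The ratio of Acta2 to smooth muscle myosin (Myh11) counts was 1.53 in jet lag female 5 and 1.24 in jet lag male 8, above the 0.35 to 0.77 of the 18 libraries, and 0.532 in 12:12 female 6. The value of 6.28 CPM came from jet lag female 1, which was also the highest library for Myh11 (10.9 CPM) and for the bile duct keratin Krt19 (9.16 CPM).

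Lrat and Des differed little by median. Lrat had a median of 4.99 CPM in the 8 libraries and 4.74 CPM in the rest, a log2 ratio of 0.07. Its 8 values were 8.01, 5.34, 4.33, 4.76, 5.26, 5.22, 4.17 and 2.16 CPM in the order of Cd79a, all inside the 0.978 to 9.32 CPM of the other libraries. The highest of them came with the lowest Cd79a and the lowest with the highest. Des had medians of 3.29 and 2.86 CPM, and all 8 values, from 2.58 to 4.62 CPM, lay inside the 1.8 to 4.69 CPM of the other libraries.

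**Figure D3:**
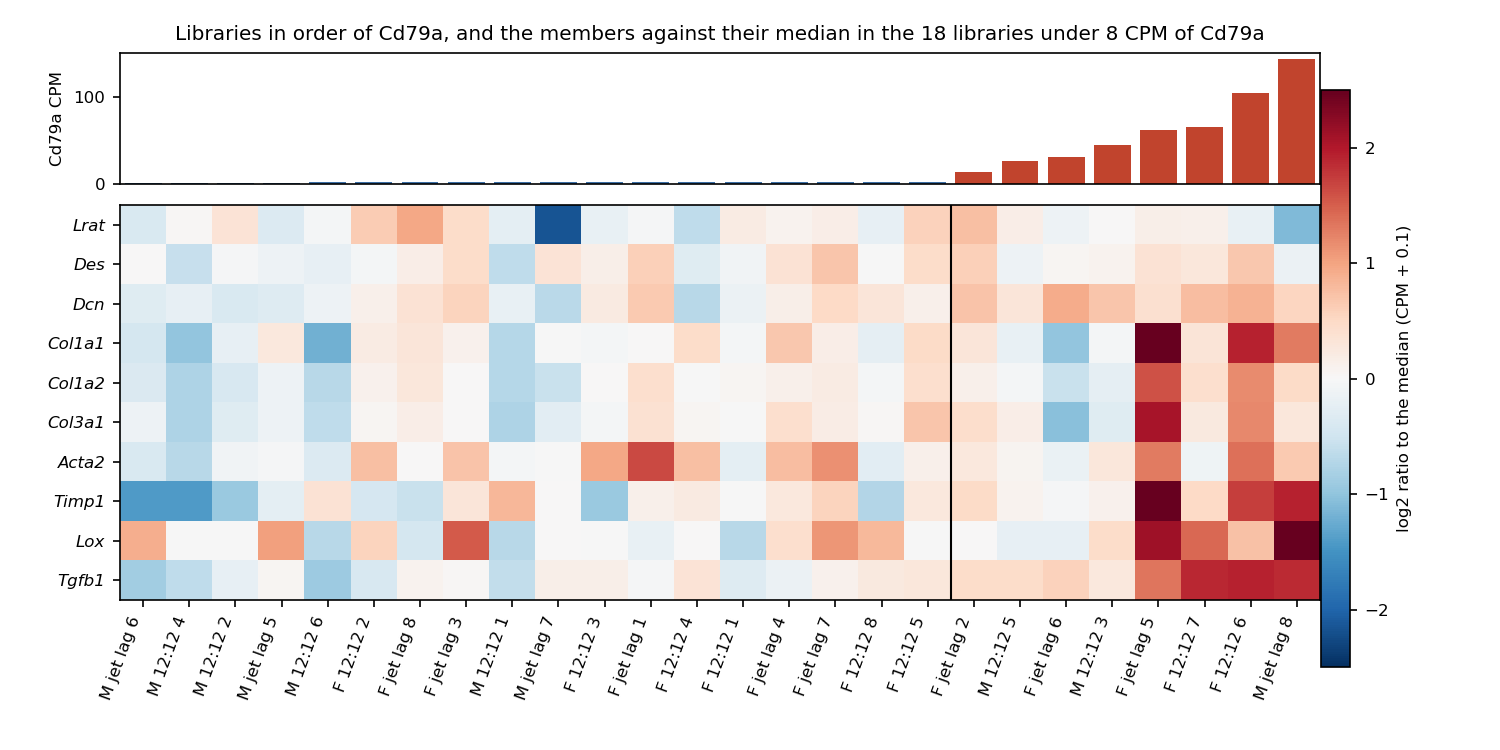
Libraries in ascending order of Cd79a CPM (bars), and below them the log2 ratio of each gene (CPM + 0.1) to its median in the 18 libraries under 8 CPM, as colour. Red blocks in Col1a1, Timp1, Lox and Tgfb1 stand at the right end, and the Lrat row shows no such block there.

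Lists of other cell types moved with the split, and their part in these values was not tested. Of 9 B-lineage genes tested 8 were more than 2-fold higher by medians, as were 9 of 9 neutrophil genes, 5 of 9 macrophage genes, 4 of 7 platelet genes and 3 of 8 erythroid genes. The 8 B-lineage genes include Cd79a, which defined the split, so that its difference was fixed by the rule. The macrophage list summed to 528 to 2501 CPM in the 8 libraries and 277 to 601 CPM in the rest, and the neutrophil list to 7.05 to 462 against 1.26 to 7.58 CPM. The neutrophil transcript S100a8 was highest in jet lag female 5 (150 CPM), 12:12 female 6 (54.8) and jet lag male 8 (36.8), the same livers in which Col1a1 was highest. T and NK cell genes had a median log2 ratio of -0.18, and none of 10 passed 2-fold.

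Most further stellate and matrix genes stayed within 2-fold by medians. Of the 20 stellate markers none passed 2-fold (median log2 ratio 0.11). Of 24 further genes of the activated matrix, 3 were more than 2-fold higher and 1 lower. The 3 were Vim (93.3 against 18.6 CPM by medians), Lgals1 (40.3 against 12.6) and S100a6 (9.85 against 1.07), which leukocytes also express. The lower gene was Col15a1, a collagen of basement membrane zones (3.24 against 7.17 CPM). Of 22 TGF-beta pathway genes, the matricellular target Ctgf (3.46 against 1.73 CPM) and the latent TGF-beta binding protein gene Ltbp2 (1.78 against 0.88 CPM) lay at the 2-fold line. Both fell short of it once the 0.1 CPM used in all these ratios was added, and none of the 22 passed. More than 2-fold higher were 2 of 12 matrix turnover genes, Mmp8 and Mmp9. Mmp8 is also on the neutrophil list and was counted there. Of 12 portal fibroblast and mesothelial genes 1 was higher, Pi16. In retinoid handling, 1 of 13 genes was more than 2-fold lower, the lipid droplet gene Plin2 (195 against 394 CPM). The median log2 ratio there was -0.20, and 1 of the 13 had a ratio above 0. None of 17 collagen processing, 10 contractile or 12 basement membrane genes passed 2-fold.

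The next comparison was of females with males, over all 26 libraries with lighting in the model. All 10 genes had higher fitted levels in females, with a median log2 fold change of 0.34 against -0.02 over all genes. None passed an adjusted p of 0.05 (edgeR quasi-likelihood test, Benjamini-Hochberg), while 9.13% of the 16892 genes did, 4.67% higher and 4.46% lower in females. The nearest was Col1a2, with a log2 fold change of 0.52 (SE 0.17, edgeR adjusted p = 0.0581), followed by Acta2 at 0.58 (SE 0.22, edgeR adjusted p = 0.103) and Col3a1 at 0.55 (SE 0.22, edgeR adjusted p = 0.126). At an unadjusted p under 0.05 the count was 4 of 10 members and 3766 of all 16892 genes. DESeq2 called 1 gene, Col1a2. With edgeR, 2 genes passed without jet lag female 6 (Col1a2 and Col3a1) and 1 without jet lag male 8 (Col1a2).

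Without the 8 Cd79a-high libraries, 11 females stood against 7 males, and 5 of the 10 genes rose in females, against 10.7% of 16431 genes tested (19.4% in either direction, 8.68% lower). They were Col1a2, Col3a1, Acta2, Col1a1 and Dcn. Counts of this kind move with the libraries left out: leaving out 1 more of the 18 gave 2 to 5 genes, with 2 without jet lag male 6 and 3 without 12:12 female 2 or 12:12 female 5.

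Col1a2 was 15.6 ± 1.88 CPM in females (SD, n = 11) and 9.91 ± 1.69 CPM in males (SD, n = 7). The 11 female libraries ran from 13.5 to 18.8 CPM with a median of 15.1, and the 7 male libraries from 8.21 to 12.9 CPM with a median of 9.55. Every female lay above every male, which 2.72% of all genes showed in that direction. The log2 fold change was 0.52 (SE 0.09, edgeR adjusted p = 0.000339), and it passed the threshold in 18 of 18 fits that left out 1 library each, with edgeR adjusted p from 0.000254 to 0.00174.

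Col3a1 was 36.1 ± 6.31 CPM in females (SD, n = 11) and 23.9 ± 4.68 CPM in males (SD, n = 7). Its lowest female library was at 30.6 CPM and its highest male library at 29 CPM, so that the sexes did not overlap in CPM. With TMM-scaled CPM they did, with the highest male at 33 and 6 of 11 females above it, whereas Col1a2 still showed no overlap (13.2 against 12.7). The log2 fold change was 0.47 (SE 0.11, edgeR adjusted p = 0.00597), past the threshold in 18 of 18 such fits. Col1a1, the partner chain of Col1a2, was 6.26 ± 1.21 CPM in females and 4.09 ± 1.51 CPM in males, with 4 of 11 females above the highest male. Its log2 fold change of 0.51 (SE 0.17, edgeR adjusted p = 0.0355) passed in 10 of 18 fits. The ratio of Col1a1 to Col1a2 counts had medians of 0.393 in females and 0.381 in males.

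Acta2 was 3.17 ± 1.39 CPM in females and 1.65 ± 0.289 CPM in males, and the spread differed as well as the level. Male libraries ran from 1.15 to 1.91 CPM, female libraries from 1.58 to 6.28 CPM, and 9 of 11 females lay above the highest male (7 of 11 with TMM-scaled CPM). The log2 fold change was 0.76 (SE 0.22, edgeR adjusted p = 0.0192), past the threshold in 17 of 18 fits (edgeR adjusted p = 0.054 without jet lag male 6). Dcn was 134 ± 30.4 CPM in females and 92.1 ± 10.8 CPM in males. Again 9 of 11 females lay above the highest male, at 104 CPM, while 12:12 female 4 at 70.6 CPM lay below all 7 males. The log2 fold change was 0.38 (SE 0.13, edgeR adjusted p = 0.0371) and passed in 6 of 18 fits.

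The other 5 genes did not pass. Lrat had a log2 fold change of 0.43 (SE 0.26), Tgfb1 of 0.30 (SE 0.15), Des of 0.26 (SE 0.14), Lox of 0.39 (SE 0.61) and Timp1 of 0.11 (SE 0.57), with edgeR adjusted p from 0.16 to 0.916. Tgfb1 had medians of 8.12 CPM in females and 4.95 CPM in males, and 4 of 11 females lay above the highest male (0 with TMM-scaled CPM).

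**Figure D4:**
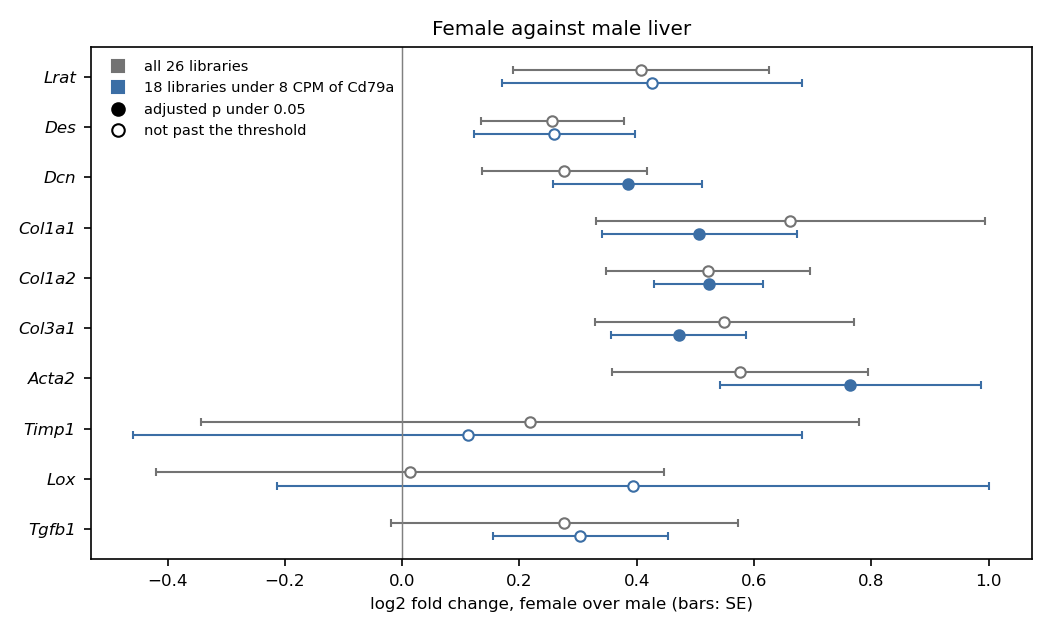
Log2 fold change of female over male liver for the 10 genes, with bars of 1 SE, over all 26 libraries (grey) and over the 18 libraries under 8 CPM of Cd79a (blue), with filled circles for an edgeR adjusted p under 0.05. The filled circles, all blue, are Dcn, Col1a1, Col1a2, Col3a1 and Acta2.

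Other genes of stellate cells and matrix were called alongside. Over all 26 libraries 4.67% of the 16892 genes rose in females and 4.46% fell. Of 20 further stellate markers 7 rose and none fell. They included Sod3, an extracellular superoxide dismutase (log2 fold change 0.69, SE 0.12, edgeR adjusted p = 0.000197), the collectin Colec11 (0.44, SE 0.10, edgeR adjusted p = 0.00511) and cytoglobin (Cygb, 0.46, SE 0.11, edgeR adjusted p = 0.00988). Of 24 further activated matrix genes 4 rose and none fell. These were the type V collagen chains Col5a1 (0.62) and Col5a2 (0.61), the proteoglycan Bgn (0.38) and Thbs2 (0.47), with edgeR adjusted p from 6.61e-05 to 0.0318. In TGF-beta signalling 3 of 22 genes rose, namely the latency protein Ltbp3 (0.51), the target Tgfbi (0.40) and the inhibitory SMAD gene Smad6 (0.52). Collagen processing had 2 of 17 genes higher, the prolyl hydroxylation partner Crtap (0.33) and Loxl1, a lysyl oxidase relative (0.85). Basement membrane had 2 of 12 (Lamb1, Col4a1), contractile genes 1 of 10 (Smtn), matrix turnover 1 of 12 (the macrophage elastase Mmp12) and portal fibroblast and mesothelial genes 1 of 12 (Thy1).

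Among the 18 libraries under the limit these counts were 9 of 20 stellate markers, 11 of 24 activated matrix genes and 7 of 22 TGF-beta pathway genes, all higher in females. Basement membrane had 4 of 12, portal fibroblast and mesothelial genes 4 of 11 and contractile genes 2 of 11, also all higher. In that fit 10.7% of all 16431 genes were higher in females and 8.68% lower. Collagen processing went both ways, with 3 of 17 genes higher and 2 lower: the prolyl isomerase gene Ppib fell by 0.34 (SE 0.09, edgeR adjusted p = 0.0115) and the prolyl hydroxylase subunit P4ha2 by 0.55 (SE 0.16, edgeR adjusted p = 0.0204) on the log2 scale. In matrix turnover 4 of 11 genes were higher and 1 lower, the membrane-type metalloproteinase Mmp15, which fell by 0.68 (SE 0.13, edgeR adjusted p = 0.000636). In retinoid handling, 2 of 13 genes rose and 3 fell. Aldh1a2 and Bco1 rose (1.66 and 0.73 on the log2 scale), while Aldh1a1, Rbp4 and Rara fell by 0.97, 0.33 and 0.35, with edgeR adjusted p from 3.15e-06 to 0.0335.

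Markers of other cells differed between the sexes too, and their part was not tested. In the 18 libraries, 6 of 10 T and NK cell genes and 5 of 9 macrophage genes rose in females, with 2 of 8 genes each for B-lineage cells and cholangiocytes. Of all genes 10.7% rose there. None of 10 endothelial genes passed. The T and NK list summed to 4.56 to 6.79 CPM in females and 1.98 to 3.78 CPM in males, and the macrophage list to 380 to 601 against 277 to 488 CPM. The 20 stellate markers summed to 358 to 585 CPM in females and 298 to 417 CPM in males, which overlapped.

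The comparison the study was set up for was jet lag against 12:12 lighting. With both sexes in the model (12 libraries from jet lag, 14 from 12:12), none of the 10 genes passed the threshold, while 0.781% of the 16892 genes did. The fitted log2 fold change was above 0 for 9 of the 10, with a median of 0.26 against 0.02 over all genes. Lox had the largest at 1.37 (SE 0.57, edgeR adjusted p = 0.459) and Des followed by unadjusted p at 0.26 (SE 0.12, edgeR adjusted p = 0.539). These 2 genes had an unadjusted p under 0.05, as did 1353 of all 16892 genes. In the authors' deposited table, which gives 12:12 over jet lag, none of the 10 passed an adjusted p of 0.05 either, with the smallest at 0.338 for Lox.

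Among the genes grouped as quiescent, Des ran from 2.31 to 4.62 CPM (median 3.02) in 12:12 females and from 2.97 to 4.69 CPM (median 3.84) in jet lag females. In males it ran from 1.8 to 3.06 CPM (median 2.54) under 12:12, and the 4 jet lag males were at 2.59, 2.86, 3.66 and 2.58 CPM. The groups overlapped in both sexes. The same comparison without the Cd79a-high libraries gave a log2 fold change of 0.39 (SE 0.13, edgeR adjusted p = 0.142).

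Lrat had fitted changes of opposite sign in the sexes, a difference that did not pass the test. In females it ran from 3.01 to 7.4 CPM (median 4.7) under 12:12 and from 4.33 to 9.32 CPM (median 5.29) under jet lag. In males it ran from 3.97 to 6.03 CPM (median 4.79) under 12:12, and the 4 jet lag males were at 3.7, 3.61, 0.978 and 2.16 CPM, all below the lowest 12:12 male. How many of all genes separated these small groups in the same way was not counted. The log2 fold change of Lrat was 0.22 (SE 0.23) in females and -0.92 (SE 0.30, edgeR adjusted p = 0.308) in males. Of all 16892 genes, 0 and 2 (0% and 0.0118%) passed in these comparisons. The difference between the sexes in response was 1.14 (SE 0.38, edgeR adjusted p = 0.814), where no gene passed. In the lowest of the 4 jet lag males, number 7, some other stellate markers were low too: Reln was 35.4, Hgf 1.79 and Rgs5 1.94 CPM, the lowest of all 26 libraries for each. Not all were low in that liver. Ngfr was 1.36 CPM, rank 9 of 26 from the lowest, and Des was 3.66 CPM, rank 18 and the highest of the males. The ratio of Lrat to Reln in that library, 0.0276, was also the lowest of the 18 libraries under the limit, where the highest was 0.0768. It lay close to the 0.0282 of 12:12 female 8, also under the limit. Among the Cd79a-high libraries, jet lag male 8 was at 0.0277 and 12:12 female 7 lower, at 0.0212.

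Dcn had medians of 129 and 164 CPM in 12:12 and jet lag females, and of 102 and 91.9 CPM in 12:12 and jet lag males. Its log2 fold change was 0.26 (SE 0.17) in females and -0.19 (SE 0.21) in males.

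Over all 26 libraries the fibrillar collagens had overlapping groups under both lightings. Col1a1 had medians of 6.47 and 6.36 CPM in 12:12 and jet lag females, with highest values of 20.7 and 38.1 CPM. In males it ran from 2.27 to 5.22 CPM (median 3.95) under 12:12, and the jet lag males were at 6.51, 3.96, 5.32 and 13.4 CPM. The log2 fold change in males was 0.91 (SE 0.52, edgeR adjusted p = 0.572). Without the Cd79a-high libraries, 4 males at 2.27 to 4.67 CPM stood against 3 at 3.96 to 6.51 CPM, and it was 0.69 (SE 0.24, edgeR adjusted p = 0.165). In females the fold change of 0.31 (SE 0.40) turned to -0.38 with DESeq2 and to -0.39 without jet lag female 5. Col1a2 (medians 14.8 and 15.7 CPM in females, 9.63 and 11.9 in males) and Col3a1 (32.6 and 38.5, 23 and 28.9) had log2 fold changes of 0.17 (SE 0.17) and 0.26 (SE 0.21) over both sexes. Without jet lag female 5 these were 0.0074 and 0.0209, and that of Col1a1 went from 0.54 to 0.13. In males without the Cd79a-high libraries, Col3a1 did not overlap (18.4 to 25.6 against 26.5 to 29 CPM under jet lag), while Col1a1 and Col1a2 did. Its log2 fold change there was 0.43 (SE 0.17, edgeR adjusted p = 0.212). The share of all genes that separated so was not counted.

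Acta2 had medians of 2.7 and 3.3 CPM in 12:12 and jet lag females, and of 1.83 and 1.9 CPM in males, with a log2 fold change of 0.26 (SE 0.21) over both sexes. Lox had medians of 0.101 and 0.0894 CPM in 12:12 and jet lag females. In males it ran from 0 to 0.124 CPM under 12:12, and the jet lag males were at 0.23, 0.203, 0.0638 and 0.953 CPM, or 11, 10, 3 and 45 counts. Its log2 fold change in males was 2.78 (SE 0.90, edgeR adjusted p = 0.301), with 3 of 4 jet lag males above the highest 12:12 male. The share of all genes that did so was not counted. Timp1 had a log2 fold change of 0.64 (SE 0.54), which in males was 0.69 (SE 0.90) and -0.77 (SE 0.92) without the Cd79a-high libraries.

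Tgfb1 had medians of 9.19 and 8.16 CPM in 12:12 and jet lag females, and of 5.78 and 8.11 CPM in males. Its log2 fold change was -0.39 (SE 0.34) in females and 0.81 (SE 0.43) in males, and the difference between the sexes was -1.19 (SE 0.55, edgeR adjusted p = 0.814). The Cd79a-high libraries stood at the top of each group (29.2 and 28.4 CPM in 12:12 females, 27.9 CPM in jet lag males), and without them the difference was -0.52 (SE 0.28, edgeR adjusted p = 0.612).

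**Figure D5:**
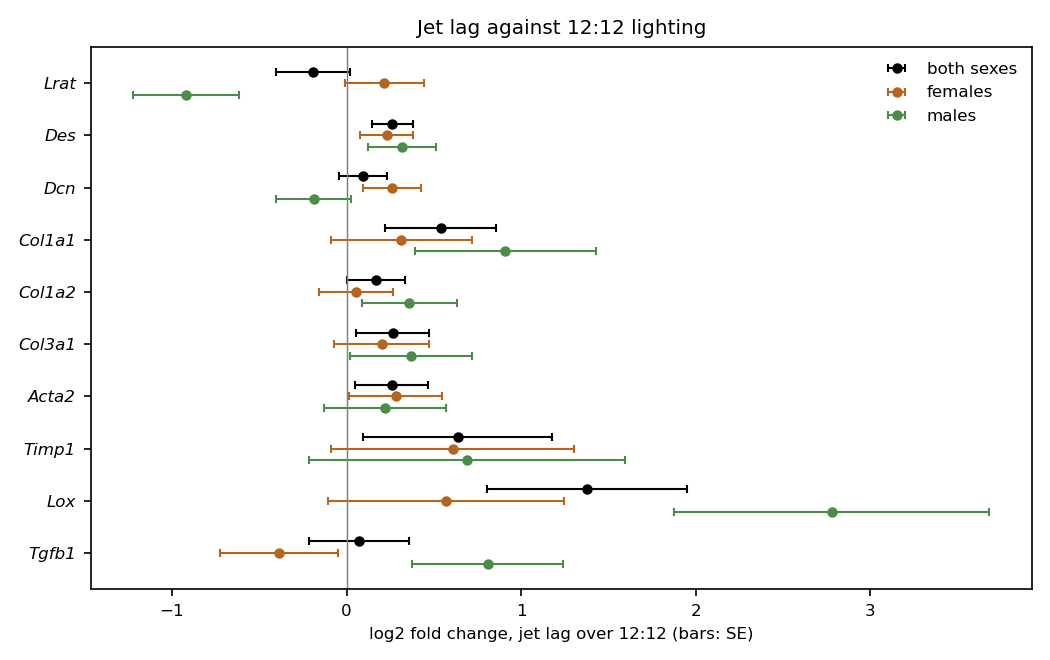
Log2 fold change of jet lag over 12:12 lighting for the 10 genes with bars of 1 SE, over both sexes (black), in females (orange) and in males (green). None passed an adjusted p of 0.05, and Lrat (-0.92) and Lox (2.78) in males lie farthest from 0.

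No gene of the further stellate, matrix, collagen processing, turnover, contractile, TGF-beta, basement membrane, portal or retinoid lists passed the threshold for jet lag over both sexes. The smallest adjusted p was that of Loxl4, a lysyl oxidase relative, with a log2 fold change of 1.24 (SE 0.33, edgeR adjusted p = 0.0822). Without the Cd79a-high libraries, where 2.32% of 16431 genes passed, none of the 10 genes did. Ngfr, a neurotrophin receptor of stellate cells, rose by 0.72 (SE 0.16, edgeR adjusted p = 0.0166) and Bmp1, the procollagen C-proteinase, by 0.34 (SE 0.09, edgeR adjusted p = 0.045) on the log2 scale. In the males of that fit, where 1.33% of genes passed, the laminin-binding Nid2 rose by 0.82 (SE 0.20, edgeR adjusted p = 0.0479).

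Across the 18 libraries under the Cd79a limit, the fibrillar collagens varied together, whereas no pair with Lrat passed. Of 45 pairs of the 10 genes, 4 passed an adjusted p of 0.05 by both Pearson's r and Spearman's rho of log2 CPM (permutation tests, 100000 resamples, two-sided, Benjamini-Hochberg over the 45). Col1a2 and Col3a1 had r = 0.92 (permutation adjusted p = 0.00045, the smallest these resamples can give) and rho = 0.86 (permutation adjusted p = 0.0009), and r = 0.86 without the 2 libraries farthest from the median of Col1a2. Col1a1 had r = 0.81 with Col3a1 (rho 0.72, r = 0.68 without 2 libraries) and r = 0.76 with Col1a2 (rho 0.66, r = 0.55 without 2). Col3a1 and Des had r = 0.71 (rho 0.69, 0.61 without 2). Col1a1 and Tgfb1 passed by Pearson's r alone (0.69, rho 0.62, 0.47 without 2).

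These pooled values hold the difference between the sexes. Within the 11 females Col1a2 and Col3a1 had r = 0.82 (permutation adjusted p = 0.0769) and within the 7 males r = 0.93 (exact permutation adjusted p = 0.176), and no pair passed within either sex. Lrat had r of 0.51 with Dcn (permutation adjusted p = 0.132), -0.33 with Tgfb1, -0.12 with Des, -0.05 with Acta2 and -0.04 with Col1a1. Both genes of a pair share the TMM-scaled library total in each library.

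Over all 26 libraries the 5 genes most like Col1a1 by Spearman's rho of log2 CPM, of 16891 compared, were Col5a2 (0.79), Col1a2 (0.79), Ttc5 (0.78), Mfap4 (0.78) and Col3a1 (0.77). The 5 most like Lrat were Wnt2 (0.72), Mpv17 (0.70), Rarb (0.65), Fam198b (0.64) and Aqp1 (0.63). Of the other members, Col1a2 and Col3a1 ranked 2 and 5 for Col1a1, Acta2 ranked 250 (rho 0.58) and Dcn 7573 (rho 0.08). For Lrat the highest-ranked member was Col3a1 at 5121 (rho 0.12), and Tgfb1 ranked 16096 (rho -0.40).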

How the data were processed

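RNA-seq libraries (stranded, mRNA, per the labels' protocols) of 26 livers were compared. The table deposited by the authors held an expected count per gene name and library with no normalization, in which 0.015 stood for 0. It was set to 0, counts were rounded, and lines sharing a name were summed. STAR, DESeq2 and mm10 are named in the submitters' processing notes without versions or roles, and the sources used here name no counting tool, annotation or strand setting. Des shares 220 exon bases with an antisense gene whose highest value was 0.0214 CPM. A DESeq2 table deposited by the authors, with a log2 fold change, its log2 standard error and a p-value per gene, was read only for the side by side count.

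CPM is the count over the library total. Tests were edgeR 4.0.16 quasi-likelihood F tests in R 4.3.3 (filterByExpr by group, count minimum 10, TMM, robust fit) over 16892 genes, which all 10 members passed into, with Benjamini-Hochberg adjusted p and a threshold of 0.05. The model of sex plus lighting gave the comparisons over both sexes, and a model of the 4 group means those within a sex and their difference. SE is the size of the log2 fold change over the square root of F. Log2 CPM, used for SDs, correlations and Dixon's test, was TMM-scaled with a prior count of 2. Ratios of medians used CPM without TMM scaling unless stated, and added 0.1 CPM. Levels per length used the exon union of GENCODE M21. The fits were first tested on simulated data.

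The members, the gene lists and the tests were chosen with earlier results of these data known. From each list up to 4 genes with the smallest p in a comparison were named, together with the members, Cd79a, Alb and the 5 genes most like Col1a1 and Lrat. Genes named outside this rule (Vim, Lgals1, S100a6, Col15a1, Ctgf, Ltbp2, Mmp8, Mmp9, Pi16, Plin2, S100a8, Myh11, Krt19, Reln, Hgf and Rgs5, and Rara and Rbp4 under the Cd79a limit) were chosen after their values were seen. Alternatives were DESeq2 1.42.0, other scalings, no filter, the Cd79a-high libraries left out, Cd79a as a covariate, each library left out, and a replicate block. Leaving out single libraries from the 18 and from the Cd79a split, and overlaps on TMM-scaled CPM (CPM over the TMM factor of all 26 libraries), were chosen after seeing the data. No library pair of a group was a copy, since counts of the closest pair differed by a chi-square of 23.1 per degree of freedom. Floors cover counting error only.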

Additional observations from a re-analysis of the deposited data

Results flagged for a closer look

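Within a group, 7 values stood far from the rest by Dixon's test at the 95% level, of 40 gene and group combinations tested; chance flags about 1 in 20. Jet lag female 5 gave 4 of them, as log2 of TMM-scaled CPM: Col1a1 at 5.13, Col1a2 at 5.28, Timp1 at 0.42 and Tgfb1 at 4.17, each the highest of 8 jet lag females. In 12:12 female 6 Col1a1 stood at 4.21, the highest of its 8. In jet lag male 8 Col1a2 stood at 4.18, the highest of 4. These 3 livers had 62.7, 105 and 144 CPM of Cd79a, and the part of that was not tested. Lrat in 12:12 male 2 stood at 2.70, the highest of 6 (6.03 CPM before TMM scaling), in a liver with 1.66 CPM of Cd79a.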

How the results depend on the processing

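No jet lag comparison called any of the 10 genes under any alternative. Female against male called 3 of them with library totals only (Col1a2, Acta2, Des; the median of all genes then moved from -0.02 to 0.12), 1 with DESeq2, 1 with Cd79a as a covariate, 5 without the Cd79a-high libraries, and 0 to 2 over single libraries left out. Leaving out 1 of the 18 libraries under the limit gave 2 to 5. Genes called of all tested moved further. Over both sexes they were 132, and 274 with DESeq2, 381 without the Cd79a-high libraries, 280 with the covariate and 70 to 244 over single libraries. Between the sexes they were 1542, then 3188 without those libraries and 2536 with the covariate. In females they were 0, then 7 with library totals, 55 with DESeq2, 13 without those libraries, 28 with the covariate, 14 in female libraries alone and 0 to 13 over single libraries. In males they were 2, then 0 with DESeq2 size factors, 0 with totals, 94 with DESeq2, 219 without those libraries, 61 with the covariate, 0 in male libraries alone and 0 to 106 over single libraries.

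Deviations of same-numbered libraries of both lightings from their group means correlated at -0.38 to 0.60. The highest was that of the females numbered 6, the only number whose best match was itself. Such correlations cannot show whether the numbers pair animals, and the labels do not say. With the replicate block, females had 19 and males 4 genes called. Signs turned for log2 fold changes of Lrat (0.10) and Tgfb1 (-0.22) over both sexes, Col1a2 in females (-0.00801), Acta2 (-0.0385), Timp1 (-1.98) and Tgfb1 (-0.16) in males, and Des (0.11) and Timp1 (2.54) in the difference between the sexes.

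Signs also turned for Col1a1 in females with DESeq2 (-0.38), for Timp1 without the Cd79a-high libraries in males (-0.77) and in the difference (1.30), and there with the covariate (0.59). For the Cd79a split, TMM scaling gave 0 genes past 2-fold, -0.0552 for Des and -0.15 for Lrat, a limit of 20 CPM gave -0.0148 for Lrat, and ratios to the endothelial list gave -0.0794 for Col1a2, -0.16 for Acta2, -0.19 for Des and -0.24 for Lrat. Over single libraries left out, 0 to 1 genes passed 2-fold.

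Over single libraries left out, signs turned for the jet lag log2 fold change in females of Col1a1 (-0.39 to 0.66), Col1a2 (-0.22 to 0.22), Col3a1 (-0.20 to 0.36) and Timp1 (-0.15 to 1.17), in males of Timp1 (-0.74 to 1.13) and over both sexes of Tgfb1 (-0.21 to 0.24). They turned for the difference in response of Acta2 (-0.10 to 0.24), Col3a1 (-0.56 to 0.00387), Des (-0.18 to 0.15) and Timp1 (-0.84 to 1.35), and for female against male of Lox (-0.21 to 0.64) and Timp1 (-0.12 to 0.72, and -0.17 to 0.63 under the limit). The causes were not tested. Depth limits Lox and Timp1, which had 3 or fewer counts in 14 and 5 of the 26 libraries.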

Other observations

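In 12:12 female 4, Dcn (70.6 CPM) was the lowest of all 26 livers, and Lrat (3.01 CPM) the lowest of the females. Reln (53.1 CPM), Hgf (7.1 CPM) and Rgs5 (2.4 CPM) were low there too, while its Col1a1 (7.4 CPM) and Acta2 (3.3 CPM) lay within the range of the other females. Dcn over Reln ran from 0.844 to 2.02 in the 18 libraries under the Cd79a limit and reached 3.83 in 12:12 female 6. The ratio of Acta2 to Myh11 was highest in jet lag female 5 and jet lag male 8, at 1.53 and 1.24, against 0.35 to 0.77 in those 18 libraries. Periostin (Postn), a matricellular protein, was highest at 69 CPM in 12:12 female 5, a liver with 2.95 CPM of Cd79a that also held the highest Col3a1 of the 18 libraries, 51 CPM. No explanation was tested for these values.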
